A study of Homo sapiens with 12 samples.

Results

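Accessible chromatin was described at 10 genes that encode transcription factors of the ETS family: ETS1, ETS2, ERG, FLI1, ETV1, ETV4, ETV5, ETV6, ELK3 and SPI1. The members were the deposited ATAC-seq peak summits lying inside one of these genes, as RefSeq places them on GRCh38, or within 10 kb of it. They numbered 74 of the 188019 summits in the list, in 63 of its 91278 intervals. ATAC-seq uses a transposase to insert adapters into open DNA, so a summit marks a point where many fragments overlap. The cells were HT1080, an established human fibrosarcoma line, kept for 48 h in rat tail type I collagen at 0.3 mg/mL (low), 1.0 mg/mL (medium) or 1.7 mg/mL (high), with 4 libraries per concentration. All 3 groups received the broad metalloproteinase inhibitor GM6001 at 20 µM, and no group without it was among the 12 libraries. Cells were released from the gels with collagenase and were frozen and thawed before transposition. The list names no library or concentration and was read as pooled over the series, so no value below compares concentrations, none has replicates, and no test was run. Depth per library is unknown. Errors are exact 95% Poisson intervals of the fragment pileup, which cover counting error only.

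ETS factors share a DNA-binding domain that recognises a GGAA core. Many of them act at the end of the RAS and MAP kinase pathway, which an activated NRAS allele drives in HT1080 cells, and several are known to regulate proteases and other invasion genes in mesenchymal cells. ETS1 and ETS2 are close paralogues and are activated by ERK phosphorylation. ERG and FLI1 form another pair, best known from endothelial and blood cells and from tumour gene fusions. ETV1, ETV4 and ETV5 make up the PEA3 group of activators, ETV6 is a repressor with a self-associating pointed domain, ELK3 is a ternary complex factor that binds DNA with SRF, and SPI1 (PU.1) is the myeloid and B cell master regulator.

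The RefSeq promoter sequences (GRCh38.p14) held entries for 5 of the 10 genes, ETV1, ETV6, ETS2, ELK3 and ERG. The 250 bases before a listed start are printed for them to show what lay under the summits and at the starts without a summit; capitals mark GGAA or its reverse complement TTCC, and each sequence reads 5′ to 3′ on the gene's own strand. The ETV1 stretch is chr7:13991426-13991675 on the minus strand and its summit falls at base 204. The ETV6 stretch is chr12:11649424-11649673 on the plus strand, with a summit at base 233. The ETS2 stretch, chr21:38805679-38805928 on the plus strand, belongs to the inner of the listed starts and ends 3 bp before its summit. For ELK3, both starts on the plus strand are shown. The stretch of the outer start, chr12:96194125-96194374, held no summit, and that of the inner start, chr12:96255248-96255497, held a summit at base 120. The ERG stretch, chr21:38660668-38660917 on the minus strand, precedes its outermost listed start and held no summit.
ETV1: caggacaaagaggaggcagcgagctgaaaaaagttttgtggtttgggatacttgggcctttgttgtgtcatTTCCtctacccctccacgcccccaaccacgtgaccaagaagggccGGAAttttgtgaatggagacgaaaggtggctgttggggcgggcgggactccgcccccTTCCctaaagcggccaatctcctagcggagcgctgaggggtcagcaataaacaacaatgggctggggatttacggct
ETV6: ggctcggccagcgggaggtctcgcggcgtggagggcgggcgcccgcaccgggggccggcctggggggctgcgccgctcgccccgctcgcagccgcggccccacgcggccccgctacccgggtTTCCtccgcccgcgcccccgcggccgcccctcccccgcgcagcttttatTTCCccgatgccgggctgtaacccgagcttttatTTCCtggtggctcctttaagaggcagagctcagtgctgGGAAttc
ETS2 inner start: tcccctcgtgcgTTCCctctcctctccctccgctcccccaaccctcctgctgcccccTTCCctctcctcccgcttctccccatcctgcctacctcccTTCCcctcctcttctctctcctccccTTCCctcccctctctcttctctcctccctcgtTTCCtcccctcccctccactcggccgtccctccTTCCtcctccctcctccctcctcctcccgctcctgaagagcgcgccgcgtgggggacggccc
ELK3 outer start: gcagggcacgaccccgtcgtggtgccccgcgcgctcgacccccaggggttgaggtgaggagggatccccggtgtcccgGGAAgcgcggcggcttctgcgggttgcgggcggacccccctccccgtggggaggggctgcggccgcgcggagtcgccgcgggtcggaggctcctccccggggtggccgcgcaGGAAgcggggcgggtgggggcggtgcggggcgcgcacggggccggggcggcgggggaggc
ELK3 inner start: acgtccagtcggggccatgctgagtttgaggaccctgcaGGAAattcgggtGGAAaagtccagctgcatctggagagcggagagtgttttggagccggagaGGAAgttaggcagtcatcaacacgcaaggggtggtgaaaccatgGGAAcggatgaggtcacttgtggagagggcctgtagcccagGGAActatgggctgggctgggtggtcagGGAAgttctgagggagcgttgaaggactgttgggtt
ERG outermost start: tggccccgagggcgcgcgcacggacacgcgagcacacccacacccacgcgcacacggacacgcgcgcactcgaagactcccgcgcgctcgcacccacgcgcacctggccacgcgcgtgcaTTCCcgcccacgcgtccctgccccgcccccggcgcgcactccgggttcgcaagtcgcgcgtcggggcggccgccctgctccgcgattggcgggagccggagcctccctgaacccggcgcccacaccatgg

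Motifs were counted on both strands in the full windows of 300 bases, which add the first 50 transcribed bases. GGAA occurred in 15 of 15 member windows, and in 95.1% of the 22063 windows of protein-coding genes, whose median count was 3. The inner ELK3 window held 8 copies and the inner ETS2 window 7, both with a summit. The outer ELK3 window held 2 and the outermost ERG window 1, both without. The remaining windows without a summit held 2 to 6 copies, and the remaining ones with a summit held 3 or 4. The longer ETS sequence CCGGAAGT, which contains that core, was found in 0 of the 15 windows and in 5.31% of all windows. Only this exact sequence was counted, so ETS sites with other bases around the core were not. TGACTCA, the AP-1 site, was in 0 of the 15 and in 4.02% of all windows. GGGCGG, the GC box, was in 7 of the 15 and in 56.3% of all windows, with 3 copies in the printed ETV1 window, 3 in ETV6, 5 in the outer ELK3 window and 4 in the outermost ERG window. Windows of the same gene overlap in part, so the 15 are not independent.

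All 10 genes held at least 1 summit in the gene or its flanks, as did 89.8% of the 20037 protein-coding genes. The number ranged from 3 at ETV5 and at SPI1 to 15 at ETV6, with a median of 5.5 against 3 over all protein-coding genes. The ETS genes were also longer, with a median of 87.8 kb against 24.1 kb. Per 100 kb of gene and flanks the median was 6.18 summits, beside 5.89 over all protein-coding genes, and 5 of the 10 lay above the latter. Over protein-coding genes at least as long as the shortest member, ETV4, it was 4.73. ELK3 was the densest, with 14.7 summits per 100 kb, and ERG the sparsest, with 3.18.

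The authors' enrichment is the fold of the fragment pileup over the local background used by the peak caller. Over the 74 summits it ran from 1.54 to 18.4 with a median of 4.87, and the pileup recovered from it ran from 35 to 4361 fragments with a median of 186. Summits in intervals of at most 10 kb on the main chromosomes, the class to which all 74 belong, had medians of 3.93 and 107. The local background stood at the genome-wide value of 20.3 fragments for 17 of the 74 summits (22.97%), compared with 35.0% in that class. Another gene of the table overlapped 10 of the 74 summits, which then cannot be assigned to either gene. Member intervals were short, between 259 and 1650 bp, and 53 of the 63 held a single summit.

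**Figure D1:**
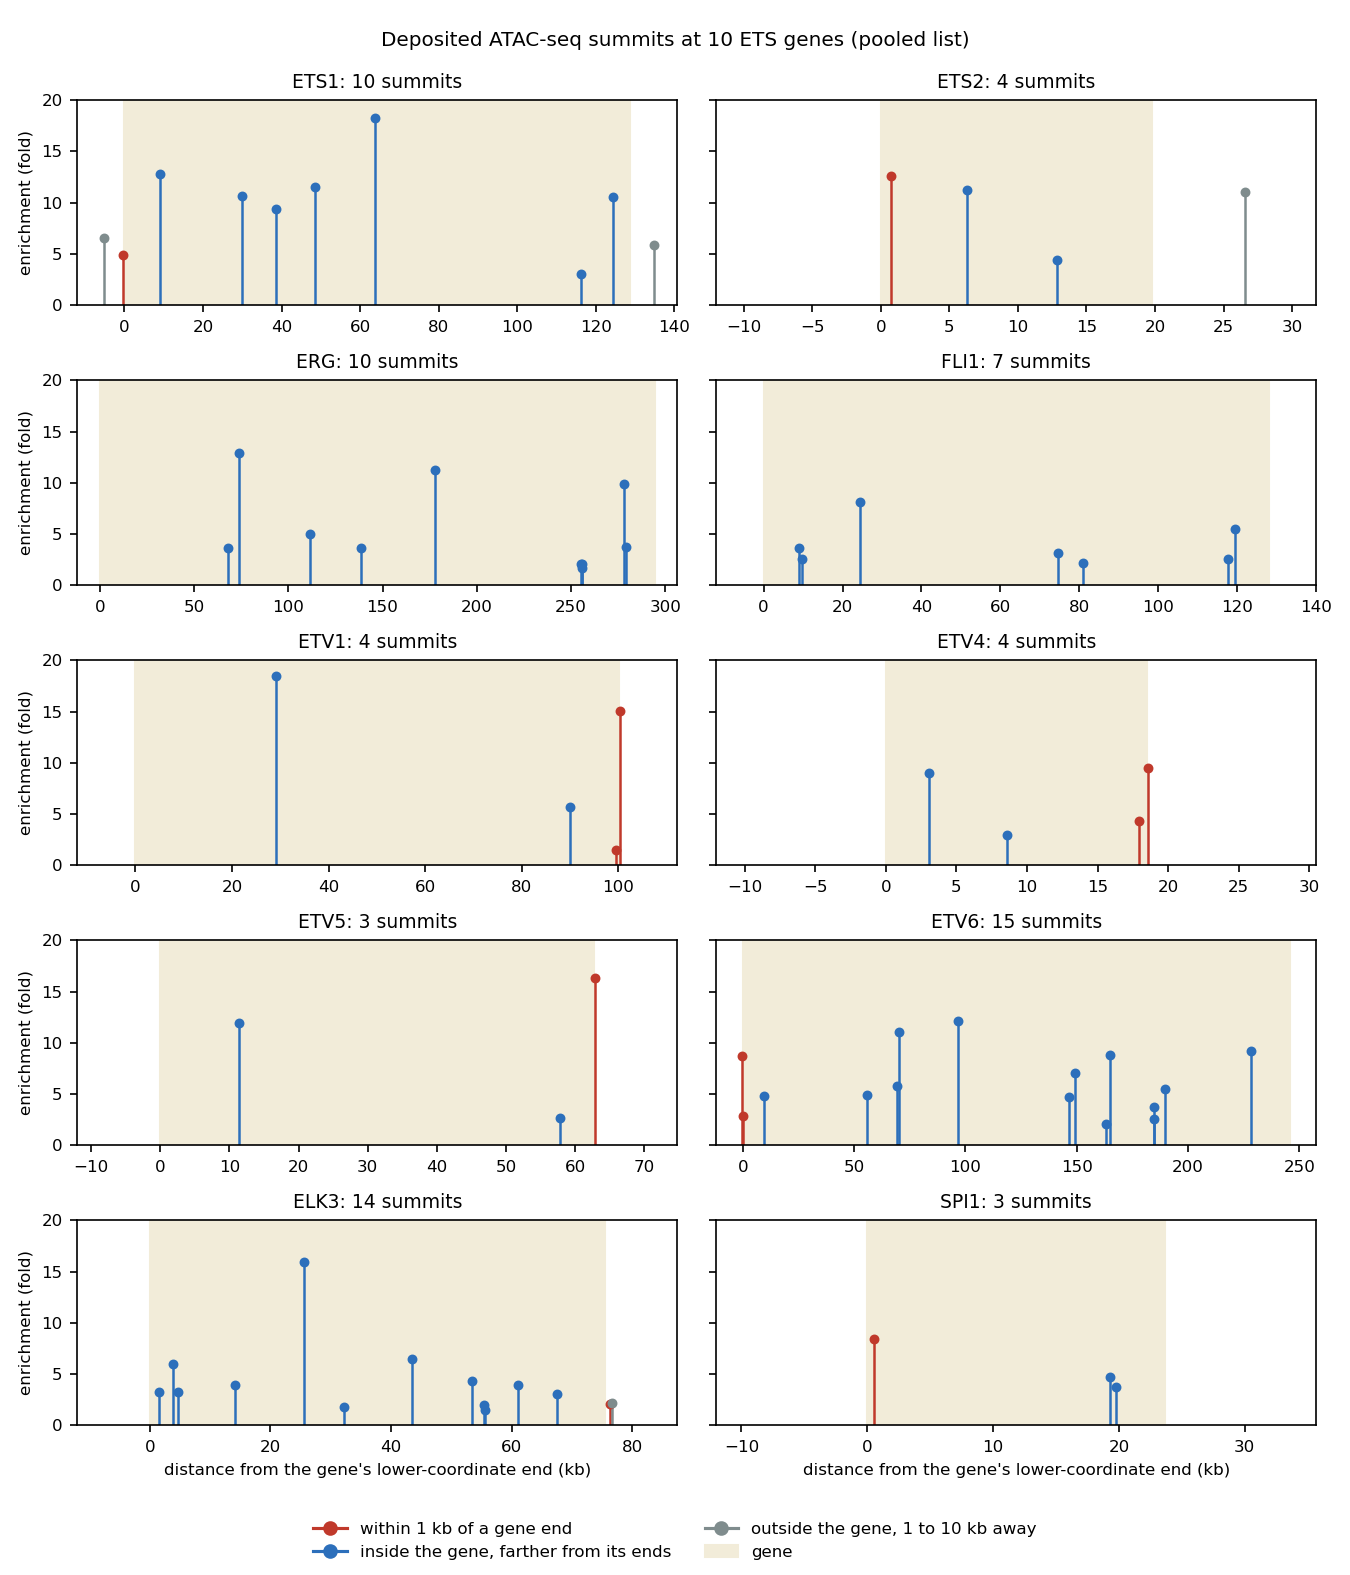
Enrichment (fold, vertical axis) of each of the 74 summits against its distance in kb from the lower-coordinate end of its gene, 1 panel per gene; shading marks the gene and colour marks where the summit lies. Summits of ETS1, ETV6 and ELK3 spread along the gene, whereas ETV5 and SPI1 have 3 each, and no red summit appears in the ERG and FLI1 panels.

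The strongest summit per gene put the members at 4 levels. ETV1 led with an enrichment of 18.4 (17.5 to 19.4), followed by ETS1 with 18.3 (17.7 to 18.8). ETV5 reached 16.3 (15.7 to 16.9) and ELK3 16.0 (15.2 to 16.7). Each of these 4 lay above the upper quartile of all protein-coding genes with a summit, 15.0, and ETV1 and ETS1 lay at the percentiles 98.6 and 98.2. ERG with 12.9 (11.9 to 14.1), ETS2 with 12.6 (11.7 to 13.5) and ETV6 with 12.2 (11.3 to 13.1) stood near the median of all protein-coding genes, 12.4. At the lower end were ETV4 with 9.47 (8.89 to 10.1), SPI1 with 8.44 (7.72 to 9.20) and FLI1 with 8.14 (7.21 to 9.17). Neighbours in this order whose intervals did not overlap were ETS1 and ETV5, ELK3 and ERG, and ETV6 and ETV4. The intervals of the other neighbours overlapped, and their differences were not tested. The median over the 10 genes was 12.7, beside 12.4 over all protein-coding genes and 13.1 over those at least as long as the shortest member. An enrichment of at least 10 was reached by 7 of the 10, and by 66.3% of all protein-coding genes with a summit.

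Pileup gave another order, because the local background differed between the sites. ETS1 had the highest, 4361 fragments (4233 to 4492), then ETV5 with 3242 (3131 to 3356), ELK3 with 1869 (1785 to 1956) and ETV1 with 1423 (1350 to 1499). The ETV1 summit thus led in enrichment over a background of 76.3 fragments, while the ETS1 summit stood over 237.9 fragments. FLI1 was lowest on both scales, with a highest pileup of 272 (241 to 306), and the ETS1 value was 16.0 times as high.

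**Figure D2:**
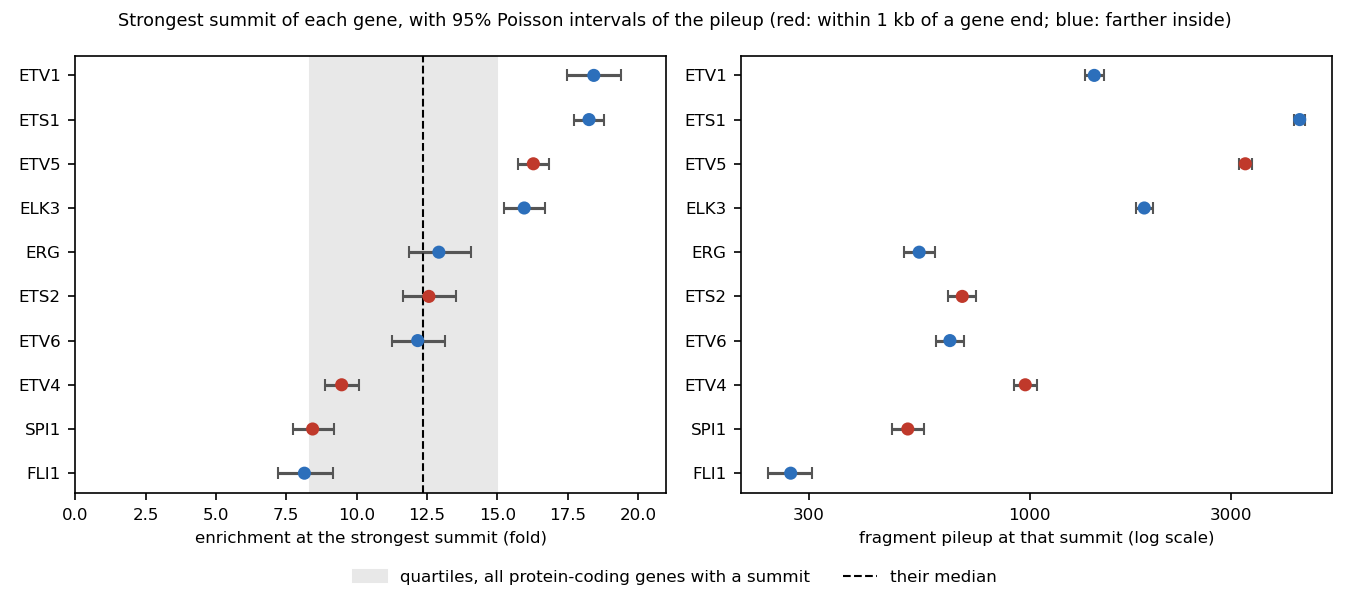
Enrichment (left, fold) and fragment pileup at the same summit (right, log axis) for the strongest summit of each gene, ordered by enrichment; bars are 95% Poisson intervals, red points lie within 1 kb of a gene end and blue points farther inside. ETV1, ETS1, ETV5 and ELK3 lie above the grey quartile band of all protein-coding genes on the left, and ETS1 and ETV5 have the highest pileups on the right.

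Place within the gene differed between members. A summit within 1000 bp of either gene end was present at 8 of the 10 genes, against 65.7% of all protein-coding genes and 70.9% of those at least as long as the shortest member. Within 500 bp it was present at 5 of the 10, and no share of all protein-coding genes is given for that distance. ERG and FLI1 were the members without one, a state shared by 24.2% of protein-coding genes, those with a summit in the gene or its flanks and none at an end. The gene table gives no strand, so both ends were counted alike. As background, ETS1, ETV4, ETV5 and SPI1 are transcribed from their higher-coordinate end and FLI1 from its lower one. These genes have no listed starts here, so their summits farther inside may lie at starts of shorter transcripts. The summits counted near an end of ETS1 and SPI1 lay at the opposite, lower end. That of ELK3 lay at its higher end, while its listed starts are on the plus strand. The count of 8 is therefore not a count of genes with an accessible outer start. Of the 5 genes with listed starts, ETV1, ETV6, ETS2 and ELK3 had a summit within 1000 bp of at least 1 start, compared with 67.7% of protein-coding genes with such an entry, and ERG had none. The strongest summit lay more than 1000 bp from both ends at 6 of the 10 genes (ETS1, ERG, FLI1, ETV1, ETV6 and ELK3), beside 52.8% of protein-coding genes with a summit.

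By place, the 11 summits near ends had medians of 8.44 in enrichment and 444 in pileup. The 59 summits farther inside the genes had medians of 4.71 and 161, and the 4 outside them had 6.20 and 239.5. Over all protein-coding genes the corresponding median enrichments were 9.36, 3.82 and 3.97. An enrichment of at least 10 was seen at 3 of the 11 near-end summits, and in 47.3% of such summits over all protein-coding genes. Among the inside summits it was seen at 13 of 59, against 12.2%.

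ETS1, on chromosome 11 from 128458765 to 128587558, had 10 summits in 10 intervals. Their enrichments ran from 3.00 to 18.3 with a median of 10.0, and 5 reached 10. The strongest, in the interval chr11:128522169-128522949, lay 63.8 kb from the lower end and 65.0 kb from the higher one. Its pileup of 4361 fragments made up 50.1% of the sum over the gene's summits. The microRNA gene MIR6090 ended 123 bp from this summit. At 9.03 kb from the lower end a summit had an enrichment of 12.8 and 1320 overlapping fragments, and those at 48.6 and 30.0 kb had 11.5 and 10.7. Near the higher end, where the longest transcripts start, no summit lay within 1000 bp, and the nearest was 4.46 kb inside with an enrichment of 10.6 and 331 overlapping fragments, in a part of ETS1 that the locus LOC105369565 overlaps. The ETS1 summit counted as near an end lay 235 bp beyond the lower end, with an enrichment of 4.87 and 229 overlapping fragments. The strongest site of ETS1 thus lay near the middle of its annotated span, and no summit stood at its higher end. No starts were listed for ETS1, so whether the strongest site lies at the start of a shorter transcript could not be read.

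ETS2, on chromosome 21 from 38805183 to 38824955, had 4 summits. The strongest had an enrichment of 12.6 and 693 overlapping fragments (642 to 747), and lay 748 bp inside the outer listed start and 2 bp past the inner one. The others had enrichments of 11.3 at 6.25 kb, 4.40 at 12.9 kb and 11.0 at 6.80 kb beyond the higher end, with pileups of 605, 160 and 355. ETS2 thus combined its strongest site, at the inner start, with 2 sites of like enrichment, within the gene and past its end.

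ERG spans 294.5 kb on chromosome 21, from 38367261 to 38661783, and held 10 summits in 8 intervals. Their enrichments had a lowest value of 1.69, a median of 3.70 and a highest value of 12.9, and 6 of the 10 stood over the genome-wide background. The 4 listed starts of ERG were 7.33, 7.35, 14.1 and 37.7 kb from the nearest summit. The strongest summit, in the interval chr21:38440633-38441303, was 73.7 kb from the lower end with a pileup of 548 (503 to 596). It was followed by a summit with 11.2 and 273 fragments at 177.6 kb, and by another with 9.84 and 318 fragments at 278.2 kb. A weak interval 255.4 kb from the lower end held 3 summits with pileups of 44, 43 and 35. The last equals the lowest pileup of any summit in the list, and a start of ERG with fewer fragments would not appear in it.

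FLI1, on chromosome 11 from 128685132 to 128813267, was the weakest member. Its 7 summits in 6 intervals had enrichments of 2.16 to 8.14, with a median of 3.14, and pileups of 45 to 272, with a median of 83. The strongest, in the interval chr11:128709404-128709878, lay 24.5 kb above the lower end, from which the gene is transcribed. The summit closest to that end, 8.96 kb inside, had an enrichment of 3.63 and 123 overlapping fragments (102 to 147). It fell within SENCR, a long noncoding RNA gene that overlaps FLI1, as did the next summit with 2.52. A summit there cannot be assigned to either gene. No starts were listed for FLI1, so whether any of its summits lies at the start of a shorter transcript could not be read.

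ETS1 and FLI1 are neighbours on chromosome 11, and ERG and ETS2 on chromosome 21, so that each pair joins a member of one paralogue group with a member of the other. The 97.6 kb between ETS1 and FLI1 held 5 summits with enrichments of 4.03 to 6.55 and pileups of at most 160. The 143.4 kb between ERG and ETS2 held 6 summits with enrichments of 3.05 to 12.5. There the strongest, 17.4 kb below ETS2, had a pileup of 519 (475 to 566), and the next, with an enrichment of 8.82, had 525 (481 to 572) at 31.7 kb. On the ERG side of that stretch a single summit, 18.0 kb from ERG, had an enrichment of 3.28 and 69 fragments. Between the genes, the summits of higher enrichment thus lay on the ETS2 side of the second stretch. The highest value at that locus was the 12.9 inside ERG.

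**Figure D3:**
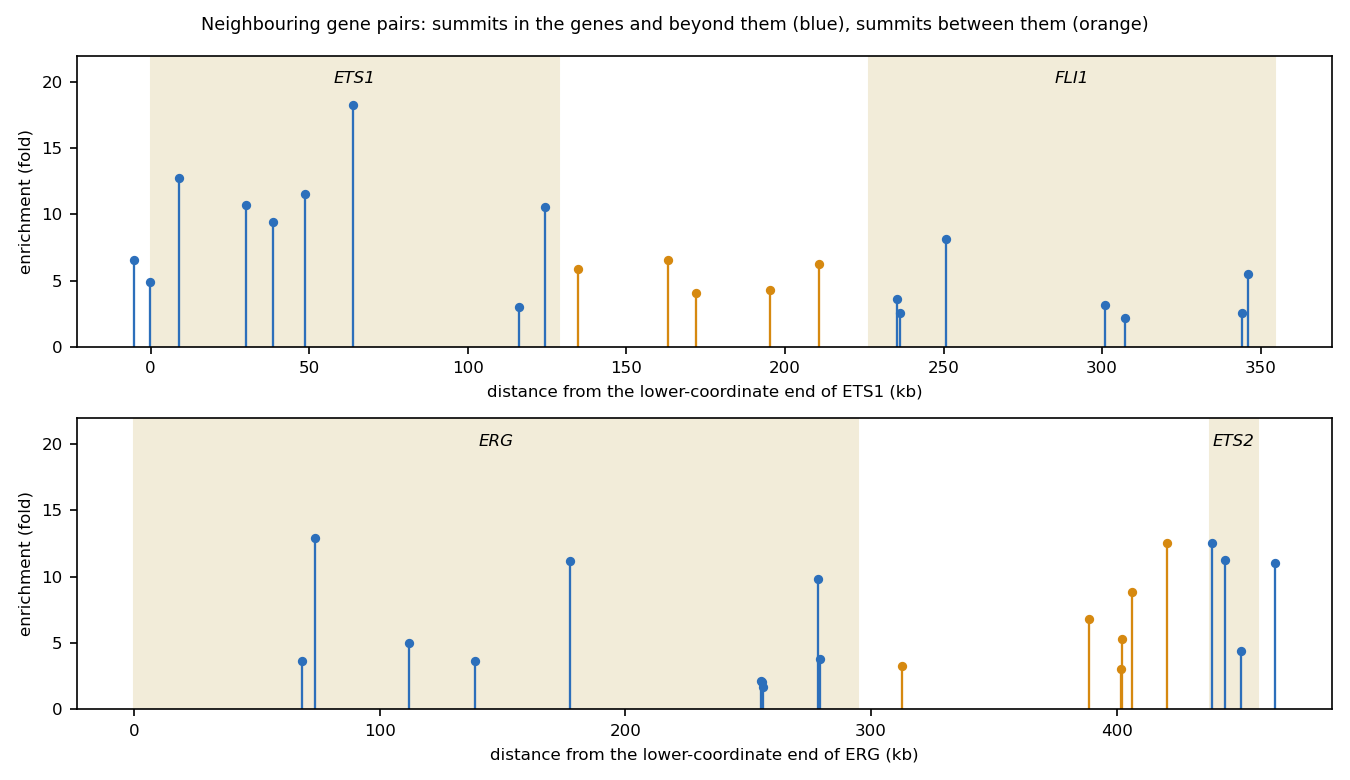
Enrichment (fold, vertical axis) of summits at the neighbouring genes ETS1 and FLI1 (top) and ERG and ETS2 (bottom) against distance in kb from the lower-coordinate end of the first gene; shading marks the genes, and orange marks the summits between them. Summits between ETS1 and FLI1 stay between 4.03 and 6.55, and those between ERG and ETS2 reach 12.5 close to ETS2.

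The PEA3 genes had 3 or 4 summits each, with highest enrichments of 18.4 at ETV1, 16.3 at ETV5 and 9.47 at ETV4. ETV1, on chromosome 7 from 13891229 to 13991425, had 4. Its strongest, in the interval chr7:13920064-13920612, lay 71.1 kb inside the gene from its outermost start with an enrichment of 18.4 and 1423 overlapping fragments. At the outermost start, in the ETV1 sequence printed above, a summit 47 bp upstream had an enrichment of 15.0 and 996 overlapping fragments (935 to 1060). A weaker summit in the same interval had 1.54 and 101 fragments, and a further one, 10.1 kb inside, had 5.72 and 121. ETV1 thus paired a strong start site with a stronger site in the gene body.

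ETV5, on chromosome 3 from 186046314 to 186109089, had 3 summits, and its start site dominated. The summit 115 bp beyond the higher-coordinate end, in the interval chr3:186108553-186109679, had an enrichment of 16.3 and held 83.0% of the gene's summed pileup. The others had enrichments of 11.9 at 11.4 kb above the lower end and 2.63 at 4.90 kb inside the higher end, with pileups of 372 and 292. The weaker of these stood over a local background of 110.6 fragments, so its pileup was not low in itself.

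ETV4, on chromosome 17 from 43527846 to 43546340, had 4 summits. The strongest, 70 bp beyond the higher-coordinate end, had an enrichment of 9.47 and 977 overlapping fragments (917 to 1040), and a second in the same interval had 4.29 and 444. The remaining summits had 8.99 and 395 fragments at 3.04 kb above the lower end, and 3.00 and 63 fragments at 8.59 kb. Both lay inside DHX8, an RNA helicase gene that overlaps ETV4, and an end of DHX8 was within 1000 bp of the summit with 4.29. Of these genes' ends, the start of ETV4 had less enrichment than those of ETV1 and ETV5, with intervals of 8.89 to 10.1 against 14.1 to 16.0 and 15.7 to 16.9. In pileup the interval of the ETV4 start overlapped that of the ETV1 start, 996 fragments (935 to 1060), and ETV5 had 3242. The local backgrounds were 102.3 fragments at ETV4, 65.4 at ETV1 and 198.2 at ETV5, and the intervals do not cover error in them.

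ETV6 and ELK3, which are known mainly as repressors, had the most summits. Per 100 kb of gene and flanks, however, ETV6 had 5.645, below the median of 5.89 over all protein-coding genes, and ELK3 had 14.7. ETV6, on chromosome 12 from 11649674 to 11895377, had 15 in 12 intervals, with enrichments of 2.04 to 12.2 and a median of 5.52. The strongest lay 96.6 kb inside the gene in the interval chr12:11745924-11746760, with a pileup of 648 (599 to 700). One at 70.3 kb had 11.0 and 699 fragments, and lay in the overlapping locus LOC124902879 with another summit of its interval. At the start, the summit inside the printed sequence, 18 bp upstream, had 2.90 and 131 fragments, while another in the same interval, 653 bp upstream, had 8.67 and 388. No ETV6 summit held more than 19.3% of the summed pileup, the lowest share among the 10 genes. ETV6 also had the most summits, and such a share tends to fall as the number of summits rises.

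ELK3, on chromosome 12 from 96194375 to 96269824, had 14 summits in 12 intervals, with enrichments of 1.54 to 16.0 and a median of 3.24. A single summit exceeded 10. It lay 25.6 kb past the outer start, in the interval chr12:96219608-96220315, with a pileup of 1869 fragments, and its enrichment was 2.48 times that of the next. No summit lay within 1000 bp of the outer start, whose printed sequence was 82.0% G and C. The closest, 1.62 kb past it, had 3.24 and 231 fragments, and the next, at 3.78 kb, had 5.997 and 423. At the inner start, the summit 131 bp upstream had 3.97 and 154 fragments (131 to 180). The ELK3 summit counted as near an end lay 751 bp beyond the higher end with 2.11 and 44 fragments. ELK3 therefore had 47.5% of its summed pileup at an internal site and little at either listed start.

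SPI1, on chromosome 11 from 47354860 to 47378547, had 3 summits in 2 intervals. The strongest, 525 bp inside the lower end, opposite the end where the gene starts, had an enrichment of 8.44 and 515 overlapping fragments (472 to 562). The others shared an interval 4.43 and 3.93 kb inside the higher end, with enrichments of 4.69 and 3.74 and pileups of 201 and 161. No summit lay within 1000 bp of that higher end, and no starts were listed for SPI1. Among cell type markers, 7 of 10 mesenchymal genes had an accessible end, with a summit at most 1000 bp away, compared with 2 of 8 blood, 2 of 6 endothelial and 1 of 6 epithelial genes. The mesenchymal share is near the 65.7% of all protein-coding genes. The mesenchymal genes without one were COL1A1, COL1A2 and THY1. The defining blood gene PTPRC, the endothelial genes PECAM1 and CDH5 and the epithelial gene CDH1 had none, but each had a summit elsewhere in the gene or its flanks, with highest enrichments of 10.1, 16.0, 9.41 and 12.5. The blood genes with a summit near an end were CD3E and CSF1R, with enrichments there of 14.5 and 5.42. Of endothelial genes, KDR had 3.05 and TIE1 3.04 near an end, and of epithelial genes EPCAM had 2.11. In highest enrichment anywhere in the gene or its flanks the lists stood in another order, with medians of 9.49 for mesenchymal, 12.3 for blood, 10.1 for endothelial and 14.2 for epithelial genes with a summit. In highest pileup the mesenchymal list stood first, with a median of 1390 fragments. The blood, endothelial and epithelial lists had 715, 571 and 794, beside 779 over all protein-coding genes with a summit. The epithelial genes ESRP1 and KRT5 had 0 summits. These genes were named after their values were seen. The part of cell identity in the values of ERG, FLI1 and SPI1 was not tested.

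The values at the window's edge were as follows. The summit just inside the limit of 10 kb was the one 6.80 kb from ETS2, with an enrichment of 11.0 and 355 overlapping fragments. Just outside it were summits 10.03 kb from ETV4 with 5.79 and 156 fragments, and 10.05 kb from ETS1 with 7.14 and 316. Outside ELK3 the nearest summit, 17.2 kb away, had 17.1 and 1175 fragments, above the enrichment of any summit inside the ELK3 window.

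The remaining 18 ETS family genes gave a set to compare with the 10. They held 63 summits, and 14 of 18 (77.8%) had one near an end. The median of their highest enrichment was 10.54, against 12.7 for the 10 genes and 12.4 for all protein-coding genes. In highest pileup these medians were 775, 838 and 779 fragments. Highest in enrichment among the 18 were ETV3, a repressor, with 15.7, ELK1, a ternary complex factor like ELK3, with 15.7, and GABPA, the ETS subunit of the GABP complex, with 12.95. All 3 of these summits lay within 1000 bp of a gene end. SPIC, a relative of SPI1 in macrophages, had 0 summits. The family members known from epithelia, EHF, ELF5, ELF3 and SPDEF, were named after their values were seen and had highest enrichments of 9.53, 5.49, 3.88 and 2.29. Of these, ELF5, ELF3 and SPDEF had a summit near an end and EHF did not. Low values were not confined to them, as ETV7 had 4.54, SPIB 6.31 and ELF1 7.34. Whether the 18 genes differ from the 10 was not tested.

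A context list of 18 genes held regulators, partners, feedback genes and targets linked to ETS factors and MAP kinase signalling. A summit lay near an end of 17 (94.4%, beside 65.7% of all protein-coding genes), and the median of the highest enrichment was 9.47, below the 12.4 over all protein-coding genes. The median of the highest pileup was 1147 fragments, however, above the 779 over all protein-coding genes. Median density was 15.0 summits per 100 kb, beside 5.89. Among the highest in enrichment were SPRY2, a feedback inhibitor of receptor signalling, with 14.6, and CIC, a repressor of the PEA3 genes, with 14.3. The member of that list without a summit was DUSP6, an ERK phosphatase. SRF, the partner of ELK3, had 12.4 near an end, and the invasion genes PLAU and MMP1, known as ETS targets, had 7.32 and 9.47. Highest pileups were 2581 fragments at SRF, 1147 at PLAU and 324 at MMP1. These 3 were named after their values were seen.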

How the data were processed

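The members and gene lists were chosen with earlier results of these data known. The series has 12 libraries, grouped by their titles, and a single deposited peak list that names no library and was read as pooled over the series. The submitters' processing notes name fastp 0.20.0, Bowtie2 2.4.3, deepTools 3.5.0, SAMtools, MACS2 2.2.7.1 and the build hg38. Roles, parameters and the pooling step are not given in the sources used here.

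The deposited list has 10 columns and no header. By column layout, the authors' values are a score, the fold enrichment as a ratio, and −log10 p and −log10 q. The lowest deposited −log10 q was 1.30. The planned test between concentrations had no input, because the list holds no value per library. The deposited summit offset was added to the interval start, and summits inside a gene or within 10 kb were assigned to it.

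Pileup and local background were solved jointly from the enrichment, taken as (pileup + 1)/(background + 1), and p, taken as a Poisson upper tail. This gave a whole pileup, within 0.05, in 99.96% of lines, and was tested on simulated data, where it returned 100% of 5000 pileups. Background percentages are over 20037 protein-coding genes of the RefSeq table for GRCh38.p14, which gives no strand. ETS1, FLI1, ETV4, ETV5 and SPI1 have no entry in the promoter table used. All 10 listed genes are named, as are the 3 highest genes and all genes without a summit among the other ETS genes and the context list, except for 1 gene that is not reported here. Python 3.11.15, scipy 1.17.1 and pandas 2.3.3 were used. Alternatives are given at the end.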

Additional observations from a re-analysis of the deposited data

How the results depend on the processing

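No paired analysis was possible because the list holds no value per library, so no fit with a replicate block, leaving out a library or using DESeq2 was run. The number of summits was 74 with the 10 kb window and 130 with 50 kb. It was between 61 and 74 with the gene alone, each interval counted once, a −log10 q of at least 10, or intervals of at most 10 kb. The median of the highest enrichment was 12.7. It became 15.97 with the 50 kb window, a setting chosen after seeing the data, as was the limit on interval length, and it was 12.4 with the gene alone and 12.7 at the stricter q. Neither the count nor this median can fall as a window widens, and no 50 kb values are given for all protein-coding genes. With the 10 kb window, the ratio of the median to that of all protein-coding genes was 1.03 in enrichment and 1.08 in pileup. Genes with a summit near an end numbered 8 within 1000 bp and 5 within 500 bp, where ETS2, ELK3 and SPI1 were lost. They numbered 8 within 2500 bp or by any overlap of the interval, and 7 at the stricter q, where ELK3 was lost. The share of all protein-coding genes is given for 1000 bp only, so the other counts have no background beside them. The pooled list limits all values: intervals cover counting error only, PCR duplicates cannot be judged, and sites with fewer than 35 overlapping fragments were not listed.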

Other observations

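The ETS sequence CCGGAAGT was examined at promoters beyond the 10 genes. Of 1172 promoter windows of 300 bases with CCGGAAGT on either strand, 919 (78.4%) held a summit, whereas 8357 of 20891 windows without it did (40.0%). The median enrichment of the strongest summit in such windows was 13.9 with the site and 12.5 without. For the GC box GGGCGG the shares were 56.2% with the box and 23.8% without. Among windows with a GC box the shares were 81.8% with CCGGAAGT and 54.5% without, and among windows lacking one they were 71.8% and 21.7%. The AP-1 site TGACTCA gave 40.7% with the site and 42.1% without. The short core GGAA gave 42.1% and 41.8%. These are shares of windows, some of which overlap or belong to the same gene, and no test was run. A letter match does not show that a factor bound. The 15 windows listed for ETV1, ETV6, ETS2, ELK3 and ERG lacked CCGGAAGT. Within the family it was present in the windows of ELK4, whose window held a summit with an enrichment of 12.3, and of GABPA, whose window held none but whose start had a summit 71 bp away, with an enrichment of 12.95.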
